A study of Mus musculus with 36 samples.

Results

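The genes described are the receptors of the colony-stimulating factors and one of their ligands, 7 of the 40354 genes in the count tables: Csf1r, Csf2ra, Csf2rb, Csf2rb2, Il3ra, Csf3r and Csf1. They were chosen by name as a receptor family, with earlier results of these data known, and all 7 passed the low-count filter of every fit. They were read in all 36 libraries of an RNA-seq time course of B cell to macrophage transdifferentiation (BMT). Mouse bone marrow B cells carried a retrovirus with the transcription factor C/EBPα fused to the estrogen receptor (ER) and a human CD4 surface marker, and estradiol (E2) moves the fused factor into the nucleus. The factor was wild-type (WT) or had its arginine 35 replaced by alanine (R35A) or by lysine (R35K). Each construct was sampled uninduced (0 hpi, hours post-induction) and 5 times after induction, at 1, 3, 6 and 18 hpi and then at 120 hpi, with 2 biological replicates, giving 18 groups. In every group the cells had been enriched for human CD4, grown on inactivated mouse embryo fibroblast (MEF) feeders with IL-7, and separated from the feeders by differential adherence. By the study's methods, the medium that was renewed every 2 days held no IL-7, so IL-7 may have differed between times. According to the same methods the induction medium held IL-3, CSF-1, SCF (stem cell factor) and a factor listed as FLT-3 beside IL-7. Whether the cells of 0 hpi were held in this medium is not clear from the sources used here. Changes from 0 hpi may therefore include a change of medium, which was not tested. IL-3 and CSF-1 are ligands of receptors described here, so transcript levels do not describe how much ligand the cells met. The virus drives the factor in all enriched cells, so that each group is a pool of infected cells and the cells of 0 hpi carry the virus too.

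CSF1R is a receptor tyrosine kinase that binds CSF-1 and IL-34 and is needed for the survival and growth of most macrophages. The receptors for GM-CSF and IL-3 each pair a ligand-specific alpha chain, encoded by Csf2ra and Il3ra, with a beta chain that carries the signal to JAK2 and STAT5. The mouse has 2 beta chain genes side by side, Csf2rb, whose product serves the GM-CSF, IL-3 and IL-5 receptors, and Csf2rb2, whose product serves IL-3. CSF3R, the G-CSF receptor, is best known from granulocytes and their precursors, and Csf1 encodes CSF-1 itself, which fibroblasts and other stromal cells make.

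The 2 beta chain genes are shown first because their likeness limits what short reads can tell apart. In GENCODE vM21 on mm10, Csf2rb lies at chr15:78325752-78353847 on the plus strand and Csf2rb2 at chr15:78282507-78305721 on the minus strand. Positions of 4 more of the genes are chr19:61223957-61228429 (Csf2ra, minus strand), chr14:14346275-14356011 (Il3ra, plus strand), chr4:126024550-126044440 (Csf3r, plus strand) and chr3:107741048-107760469 (Csf1, minus strand). The longest coding sequences of Csf2rb and Csf2rb2 aligned over 2628 bases with 95.2% identity. A 90-base stretch of each, coding positions 23 to 112, shows this likeness, with the 4 bases that differ in capitals.
Csf2rb: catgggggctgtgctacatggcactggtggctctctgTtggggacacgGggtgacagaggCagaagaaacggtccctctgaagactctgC
Csf2rb2: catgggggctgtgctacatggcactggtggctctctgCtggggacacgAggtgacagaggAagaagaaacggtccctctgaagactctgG
Of the distinct 50-base windows of their transcripts, which is the read length, 12.3% of those of Csf2rb and 18.4% of those of Csf2rb2 also occurred in the other gene. Reads from such windows map to both genes and are not counted, so both counts miss them. For Csf3r, 10.5% of windows were shared on the same strand with other genes. For Csf2ra, Il3ra and Csf1 the share was 0%. Csf1r shared none on its own strand, but 14.3% of its windows lie opposite Hmgxb3, and the strand setting of the counts is not given in the sources used here.

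Promoters of 5 of the 7 genes matched the RefSeq promoter table (GRCm38.p6, the same assembly as mm10). The 250 bases before the RefSeq start site are printed for Csf2ra, Csf2rb2 and Csf3r, 3 receptors with different time courses below. For Csf2rb2 and Csf1 this start is that of the GENCODE gene. For Csf2ra, Il3ra and Csf3r it lies inside the GENCODE gene, so that part of the 250 bases does too. The capitals mark GAGGAA, a core bound by the myeloid factor PU.1, and TTNNGNAA, a form of the C/EBP site, each searched on both strands. Over all 32851 promoters of this length in the table, 23.25% held GAGGAA and 36.85% held TTNNGNAA.
Csf2ra, chr19:61228419-61228668, minus strand: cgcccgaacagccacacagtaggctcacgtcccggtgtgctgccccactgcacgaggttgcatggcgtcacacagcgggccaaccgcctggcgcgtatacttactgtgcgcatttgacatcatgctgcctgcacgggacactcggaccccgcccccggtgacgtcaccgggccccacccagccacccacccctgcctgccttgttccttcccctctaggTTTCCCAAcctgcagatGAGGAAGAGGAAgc
Csf2rb2, chr15:78305722-78305971, minus strand: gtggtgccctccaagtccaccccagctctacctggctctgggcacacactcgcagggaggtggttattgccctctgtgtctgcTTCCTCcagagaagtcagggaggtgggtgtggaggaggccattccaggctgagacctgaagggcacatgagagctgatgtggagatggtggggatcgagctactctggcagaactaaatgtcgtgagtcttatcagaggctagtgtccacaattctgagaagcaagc
Csf3r, chr4:126024409-126024658, plus strand: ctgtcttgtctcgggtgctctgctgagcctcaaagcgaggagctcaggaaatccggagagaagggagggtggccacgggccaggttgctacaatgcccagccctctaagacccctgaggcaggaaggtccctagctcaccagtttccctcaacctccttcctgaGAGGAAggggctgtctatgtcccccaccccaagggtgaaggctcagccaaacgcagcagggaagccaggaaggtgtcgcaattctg
Csf2ra held GAGGAA 2 times, at bases -14 to -9 and -8 to -3 from its RefSeq start, and TTNNGNAA 1 time. The GENCODE gene begins at 61228429 on this strand, where the first GAGGAA overlaps it, and the second lies inside it. Csf2rb2 and Csf3r each held 1 GAGGAA and no TTNNGNAA. That of Csf3r lies inside the GENCODE gene, which begins at 126024550. Of the promoters not printed, that of Il3ra held 1 TTNNGNAA, also inside the GENCODE gene, and that of Csf1 held neither. These matches describe letters and not binding.

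Libraries held 13044456 to 23131776 counted reads. Summed over 8 B cell markers, levels fell from between 3668 and 4024 CPM (counts relative to the total of a library, scaled by TMM) in the 6 libraries of 0 hpi to between 130.1 and 197 CPM at 120 hpi. The sum over 8 macrophage markers rose from between 60.16 and 65.95 CPM to between 16140 and 27980 CPM, and all 8 rose in all 3 constructs. Markers of the feeder fibroblasts were present as well, at a sum of 1615 to 1758 CPM over 9 genes at 0 hpi, 2312 to 4268 CPM at 18 hpi and 158.9 to 595.8 CPM at 120 hpi. In these bulk libraries fewer cells of a type and less RNA per cell cannot be told apart.

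At 0 hpi 0 of the 7 genes were called between any 2 of the constructs by edgeR, and DESeq2 called 0 as well. At an unadjusted p under 0.05 there were 1 for R35A against WT, 0 for R35K against WT and 3 for R35K against R35A. The share of all genes called there was 0% for R35A against WT, 0% for R35K against WT and 0.00579% for R35K against R35A. A gene was called at a change of at least 1.5-fold with an adjusted p (Benjamini-Hochberg) no larger than 0.05 in edgeR's quasi-likelihood test, which holds for every call below. At 0 hpi Csf1 was the most abundant of the 7 per length in all 3 constructs, at 37.7 CPM per kb of merged exons in WT, and Csf3r the least, at 0.271 CPM per kb. Between them, Csf2rb stood at 5.38, Il3ra at 5.08, Csf2ra at 4.71, Csf2rb2 at 3.93 and Csf1r at 1.30 CPM per kb. Relative to length, uninduced cells held more transcript of the beta chains and of the alpha chains than of Csf1r.

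By 120 hpi the order had changed and Csf1r was the highest of the 7 in every construct, at 388 CPM per kb in WT, 322 in R35A and 377 in R35K. In WT it was followed by Csf2ra with 190 CPM per kb, Csf2rb with 147, Csf2rb2 with 63.8, Csf1 with 51.7, Csf3r with 45.9 and Il3ra with 19.3. In R35A and R35K, Csf2rb and not Csf2ra was second, with 120 and 130 CPM per kb. Merged exons cover all annotated transcripts of a gene. With coding length instead, the order of the 7 genes was the same in 14 of 18 groups and the highest gene in 18 of 18.

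**Figure D1:**
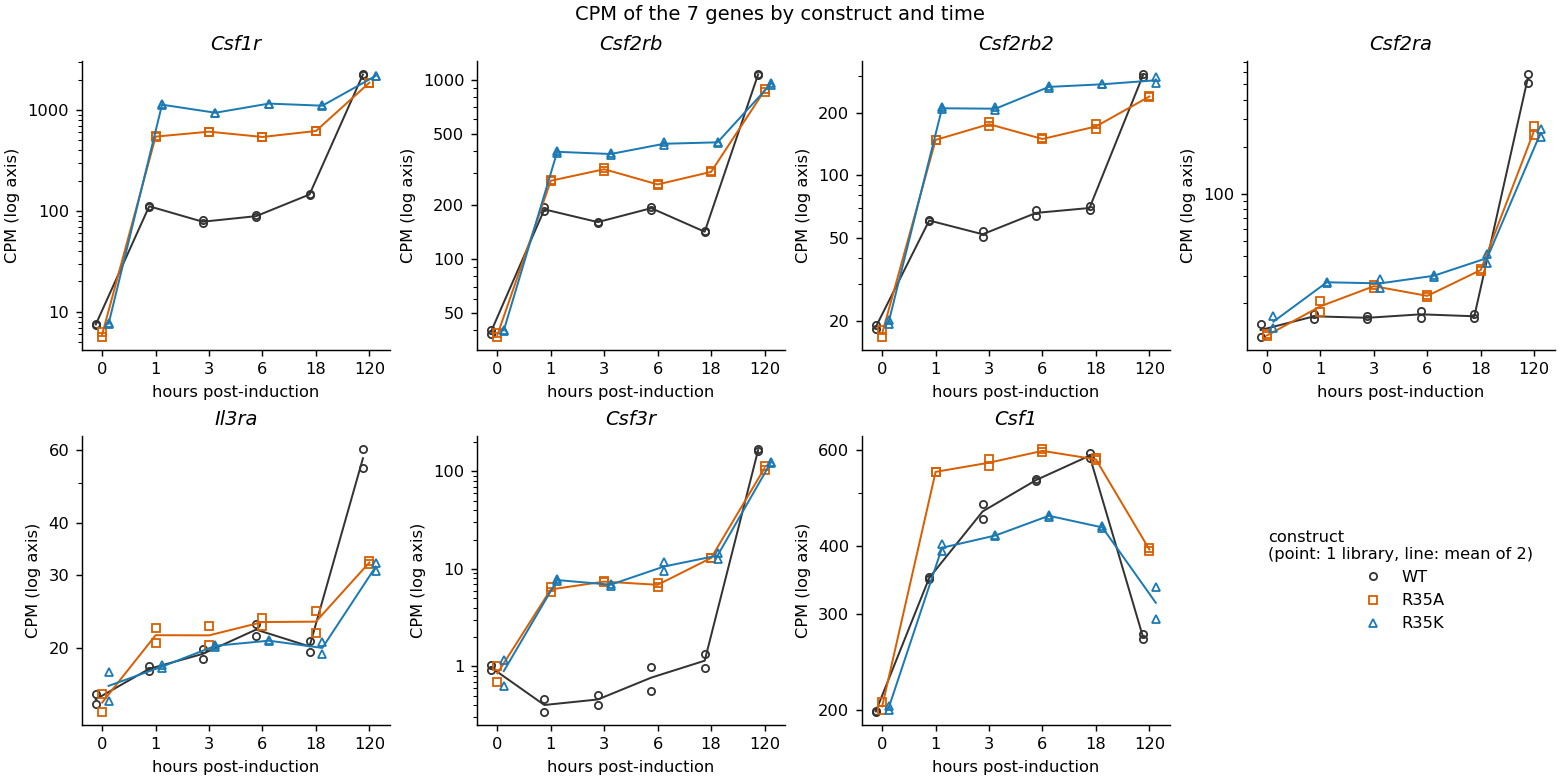
CPM on log axes against hours post-induction, 1 panel per gene, with points for single libraries and lines through the means of the 2 libraries of WT (circles), R35A (squares) and R35K (triangles). Csf1r, Csf2rb and Csf2rb2 jumped by 1 hpi, Csf2ra, Csf3r and Il3ra reached their highest levels at 120 hpi, and Csf1 was highest between 6 and 18 hpi.

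Csf1r, Csf2rb and Csf2rb2 were called higher by 1 hpi in all constructs and changed less from there to 18 hpi than in the first hour. By 120 hpi Csf1r and Csf2rb had risen again in all constructs. Csf1r went from 7.54 and 7.48 CPM in the 2 WT libraries of 0 hpi to 110.4 and 112 CPM at 1 hpi. In R35A it went from 5.70 and 6.28 CPM to 549 and 539 CPM, and in R35K from 7.71 and 7.57 CPM to 1147 and 1107 CPM. No library of 1 hpi overlapped the libraries of 0 hpi, and the 3 constructs did not overlap each other at 1 hpi. The log2 fold change of Csf1r from 0 to 1 hpi was 3.91 ± 0.06 in WT (SE, edgeR adjusted p = 1.43e-45), 6.47 ± 0.05 in R35A (adjusted p = 1.67e-57) and 7.15 ± 0.05 in R35K (adjusted p = 9.16e-44).

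Between 1 and 18 hpi the means moved far less than in the first hour. In WT the mean of Csf1r was 111 CPM at 1 hpi, 78.2 at 3, 88.7 at 6 and 145 at 18 hpi. In R35A the 4 means lay between 539.9 and 619 CPM and in R35K between 938 and 1156 CPM. At 120 hpi the means came close together, at 2240 ± 25.1 CPM in WT, 1861 ± 1.79 in R35A and 2175 ± 9.75 in R35K (SD, n = 2). Relative to its own level at 120 hpi, Csf1r at 1 hpi stood at 4.96% in WT, 29.2% in R35A and 51.8% in R35K.

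Csf2rb, the shared beta chain, went in WT from 38.3 and 40.0 CPM at 0 hpi to 194 and 184 CPM at 1 hpi. It reached 275 and 271 CPM in R35A and 401 and 391 CPM in R35K, from 36.8 to 40.0 CPM in their libraries of 0 hpi. The log2 fold changes were 2.29 ± 0.05 in WT, 2.84 ± 0.04 in R35A and 3.26 ± 0.04 in R35K. At 120 hpi the means were 1070.3, 871 and 948 CPM.

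Csf2rb2, the IL-3 beta chain, rose from 18.24 and 19.02 CPM to 60.9 and 60.3 CPM in WT, a log2 fold change of 1.72 ± 0.06. In R35A it stood at 148 CPM in both libraries of 1 hpi and in R35K at 212 and 208 CPM, with log2 fold changes of 3.07 ± 0.05 and 3.37 ± 0.05. In R35K it had reached 95.7% of its 120 hpi level by 18 hpi, in R35A 71.8% and in WT 23.0%. From 18 to 120 hpi Csf2rb2 was called higher in WT (log2 fold change 1.99 ± 0.04) and was not called in R35A (0.37 ± 0.04) or R35K (0.01 ± 0.04).

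**Figure D2:**
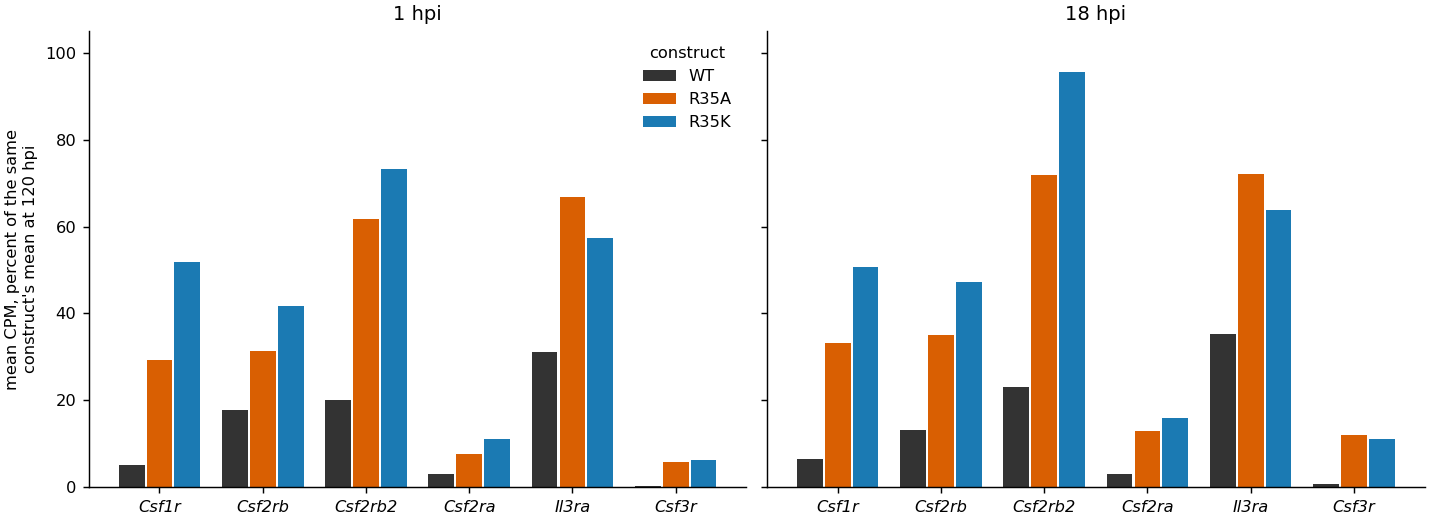
Mean CPM of the 6 receptor genes at 1 hpi (left) and 18 hpi (right) as a percent of the same construct's mean at 120 hpi, with a bar for each construct. At 1 hpi Csf1r stood at 4.96% in WT, 29.2% in R35A and 51.8% in R35K, while Csf2ra and Csf3r stood at 11.1% or less in all 3.

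The ratio of the 2 beta chain genes changed over time and differed between constructs. The count of Csf2rb divided by that of Csf2rb2 within a library was between 1.984 and 2.197 in the 6 libraries of 0 hpi. At 1 hpi it was 3.18 and 3.05 in WT, but 1.86 and 1.83 in R35A and 1.89 and 1.88 in R35K. At 18 hpi the ratio in WT was 1.98 and 2.09, and at 120 hpi all 6 libraries lay between 3.247 and 3.679. The ratio is taken within a library, so that depth and scaling do not enter it, and windows that the genes share are missing from both counts.

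**Figure D3:**
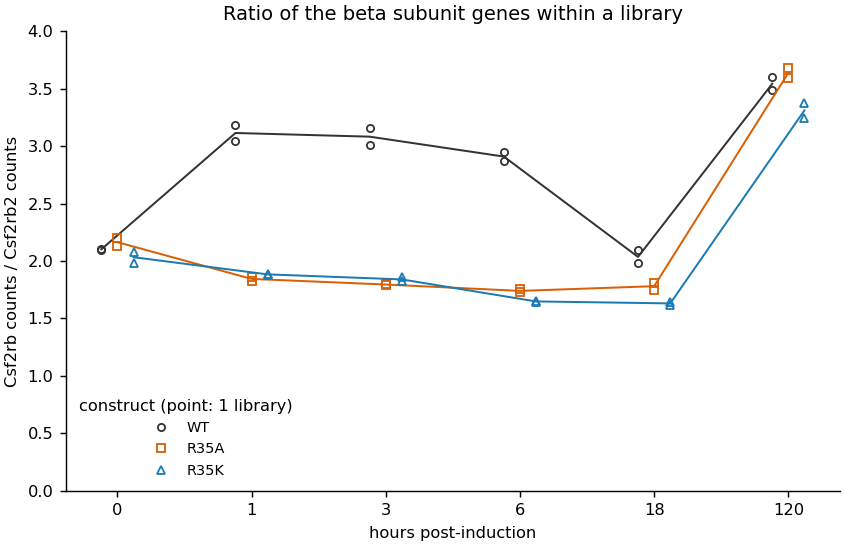
Counts of Csf2rb divided by counts of Csf2rb2 in each library (points) and their mean (lines) against hours post-induction, by construct. WT lies near 3 from 1 to 6 hpi and near 2 at 18 hpi, the mutants lie below 2 from 1 to 18 hpi, and all 6 libraries of 120 hpi lie above 3.

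Csf2ra, the GM-CSF receptor alpha chain, rose late. In WT it stood at 12.3 and 14.7 CPM at 0 hpi, 17.0 and 16.0 CPM at 18 hpi and 581 and 511 CPM at 120 hpi. The mutants were already higher at 18 hpi, with 32.3 and 33.0 CPM in R35A and 36.4 and 41.4 CPM in R35K, but lower at 120 hpi, with 271 and 236 CPM and 258 and 232 CPM. No mutant library overlapped WT at either time, and the order of mutants and WT had turned between them. The log2 fold change from 0 to 120 hpi was 5.21 ± 0.07 in WT, 4.22 ± 0.07 in R35A and 3.91 ± 0.07 in R35K, and that from 18 to 120 hpi was 4.92 ± 0.07, 2.85 ± 0.06 and 2.60 ± 0.06.

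In the mutants Csf2ra was called from 1 hpi on, while in WT its log2 fold changes from 0 hpi were 0.26 to 0.32 up to 18 hpi and were not called. The call at 1 hpi in R35A was close to the fold limit, at 0.59 ± 0.10. It was lost without R35A 0 hpi replicate 1, at 0.57, and without R35A 1 hpi replicate 2, at 0.49.

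Csf3r, the G-CSF receptor, was low in WT until 18 hpi, with between 6 and 23 counts per library, and then rose to 1909 and 1700 counts, or 169 and 162 CPM, at 120 hpi. In R35A it already had 116 and 102 counts at 1 hpi, or 6.47 and 5.85 CPM, and in R35K 121 and 120 counts, or 7.93 and 7.45 CPM. Its mean at 120 hpi was 108 CPM in R35A and 124 CPM in R35K. The log2 fold change from 0 to 1 hpi was 2.86 ± 0.21 in R35A and 3.02 ± 0.22 in R35K. These start from few reads at 0 hpi, 15 and 13 counts in R35A and 20 and 10 in R35K.

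In WT, Csf3r was called lower at 1 hpi (log2 fold change -1.26 ± 0.41, edgeR adjusted p = 0.0138) and at 3 hpi (-1.09 ± 0.40, adjusted p = 0.0272), on 15 and 13 counts against 7 and 6, and 8 and 7. These calls rest on few reads. The call at 1 hpi was lost without WT 0 hpi replicate 1 (adjusted p = 0.0813) and without WT 1 hpi replicate 2 (adjusted p = 0.123), and that at 3 hpi was lost without any 1 of its 4 libraries (adjusted p between 0.0520 and 0.155) and without the low-count filter (adjusted p = 0.0593). Beside Csf3r stand the markers of granulocytes and mast cells: their sum over 9 genes was 28.71 to 35.18 CPM at 0 hpi and 8.019 to 13.88 CPM at 120 hpi. From 0 to 120 hpi in WT 7 of them fell, 1 rose and 1 was too low to test, where 40.2% of all genes fell and 23.1% rose. The mast cell genes Cpa3 and Ms4a2 were then at 0 counts in both WT libraries, and the 1 that rose was Prtn3, a granule protease, from 1.67 to 11.5 CPM.

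Il3ra, the IL-3 receptor alpha chain, had the smallest change of the receptors from 0 to 120 hpi in every construct. It stood at 15.5 and 14.7 CPM at 0 hpi in WT, 20.9 and 19.6 CPM at 18 hpi, and 60.2 and 54.4 CPM at 120 hpi. At 120 hpi it reached 32.5 and 31.9 CPM in R35A and 30.7 and 32.2 CPM in R35K, so that both WT libraries lay above all 4 mutant libraries. The log2 fold change from 0 to 120 hpi was 1.80 ± 0.08 in WT, 0.99 ± 0.09 in R35A and 0.86 ± 0.08 in R35K. In R35A it was also called at 6 hpi (0.62 ± 0.09) and 18 hpi (0.63 ± 0.09), both lost without R35A 0 hpi replicate 1 (0.55 and 0.56) and the latter without R35A 18 hpi replicate 2 (0.55). In WT at 6 hpi it was not called, at 0.54 ± 0.09, and was called without WT 0 hpi replicate 1 or WT 6 hpi replicate 1, at 0.59 in each case, and with DESeq2 or its size factors, at 0.60. In R35A at 1 hpi it was not called, at 0.51 ± 0.09, and was called without R35A 0 hpi replicate 2 or R35A 1 hpi replicate 2, at 0.59 in each case.

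Csf1, the ligand, followed another course from the receptors. In WT it rose from 199 CPM in both libraries of 0 hpi to 348 and 351 CPM at 1 hpi and 590.5 and 579 CPM at 18 hpi, and stood at 275 and 270.1 CPM at 120 hpi. In R35A it stood at 546 and 547 CPM by 1 hpi, 578 and 573 CPM at 18 hpi and 396 and 392 CPM at 120 hpi. In R35K it stood at 403 and 391 CPM, 434 and 430.4 CPM, and 336 and 294 CPM at these times. The log2 fold change from 18 to 120 hpi was -1.22 ± 0.03 in WT and -0.65 ± 0.03 in R35A, both called, and -0.51 ± 0.04 in R35K, not called. The R35A value was close to the fold limit, and its call was lost, at -0.55 to -0.54, when any 1 of 9 libraries was left out. These were both replicates of 18 and 120 hpi of WT and R35A and R35A 1 hpi replicate 2. With DESeq2, or with its size factors in edgeR, the value was -0.58 and was not called either.

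Against 0 hpi, Csf1 at 120 hpi was called higher in R35A (log2 fold change 0.83 ± 0.03) but not in WT (0.33 ± 0.04) or R35K (0.54 ± 0.04). The R35K value became 0.72 without R35K 120 hpi replicate 2, and then passed the limit, as it did with DESeq2 and its size factors (0.68 each), with the compared groups alone (0.72) and with all 36 libraries in 1 fit (0.64).

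In WT the mean feeder sum went from 1632 CPM at 0 hpi to 3336 CPM at 1 hpi and 4222 CPM at 18 hpi, and Csf1 was higher at each of these times too. In both mutants the feeder sum was lower at 18 than at 1 hpi, at 3111 against 3747 CPM in R35A and 2333 against 2961 CPM in R35K, while Csf1 was not. The part of the feeder cells in the values of Csf1 was not tested. As a share of the summed CPM of the 9 feeder markers, Csf1 lay between 11.74% and 12.34% in the libraries of 0 hpi, between 10.42% and 14.68% at 1 hpi and between 13.84% and 18.79% at 18 hpi. At 120 hpi the share was 148% and 169.9% in WT and between 66.5% and 68.1% in the 4 mutant libraries. The collagen gene Col1a1 went in WT from 356 CPM at 0 hpi to 1018 CPM at 18 hpi and 29.2 CPM at 120 hpi. Over the 18 groups, log2 Csf1 and the log2 feeder sum had a Pearson r of 0.53 and a Spearman rho of 0.754, groups that share the same scaling and time points. Pdgfrb is a growth factor receptor of stromal cells whose gene lies next to Csf1r. Its levels were 71.38 to 81.12 CPM at 0 hpi, 128.9 to 184.7 CPM at 18 hpi and 13.88 to 35.74 CPM at 120 hpi. Csf1r was highest at 120 hpi, and any part of the feeder cells in its values was not tested.

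**Figure D4:**
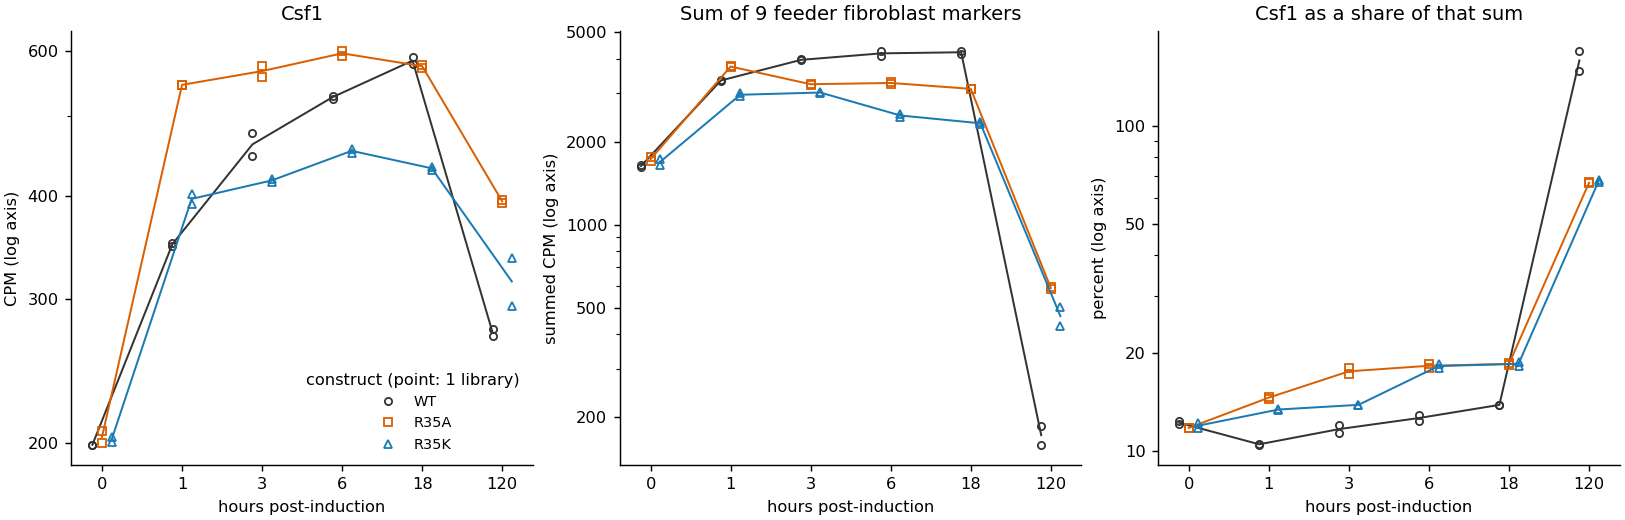
CPM of Csf1 (left), summed CPM of 9 feeder fibroblast markers (middle) and the first as a percent of the second (right), on log axes against hours post-induction, with a point for each library and a line through the means. Both levels were higher from 1 to 18 hpi than at 0 hpi, and the share rose above 66% in all 6 libraries of 120 hpi.

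Counted over the 7 genes, the changes from 0 hpi in WT numbered 5 at 1 and 3 hpi, 4 at 6 and 18 hpi and 6 at 120 hpi, against 19.9%, 23.5%, 29.8%, 47.1% and 63.3% of all genes called at these times. All were increases but those of Csf3r at 1 and 3 hpi. In R35A 6, 6, 7, 7 and 7 of the 7 rose, where 37.3%, 36.8%, 37.7%, 42.6% and 63.1% of all genes were called. Called higher were 18.3%, 17.9%, 18.5%, 21% and 24.2% of all genes. In R35K 6 of 7 rose at every time, where 32.9%, 32.7%, 34.1%, 39% and 63.8% of all genes were called. Called higher were 15.5%, 15.9%, 16.3%, 18.4% and 25.4% of all genes. The gene not called in R35K was Il3ra up to 18 hpi and Csf1 at 120 hpi.

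From 18 to 120 hpi 7 of the 7 genes were called in WT, 5 in R35A and 5 in R35K, beside 60.5%, 53.9% and 53.3% of all genes. Csf3r had the largest late rise of the 7 in WT, a log2 fold change of 7.03 ± 0.11, against 2.96 ± 0.08 in R35A and 3.12 ± 0.07 in R35K. Il3ra passed in R35K only narrowly, at 0.60 ± 0.08, and did not pass without R35K 18 hpi replicate 1 (0.55) or with the compared groups alone (0.57).

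The constructs were then compared at the same time. R35A differed from WT in 4, 5, 3 and 5 of the 7 genes at 1, 3, 6 and 18 hpi, all higher in R35A, where 19.3%, 17%, 13.7% and 10.1% of all genes were called. Called higher in R35A were 8.51%, 7.95%, 6.2% and 6.9% of all genes. Csf1r, Csf2rb2 and Csf3r were called at all 4 times. For Csf1r the log2 difference between R35A and WT was 2.25 ± 0.04, 2.94 ± 0.04, 2.61 ± 0.04 and 2.08 ± 0.04 at these times. For Csf2rb2 it lay between 1.18 and 1.73 and for Csf3r between 3.17 and 3.98. Csf2rb and Csf2ra were called at 3 and 18 hpi, and Csf1 at 1 hpi only (0.60 ± 0.03).

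R35K differed from WT in 5 of 7 genes at each of 1, 3, 6 and 18 hpi, where 15.2%, 13%, 14.9% and 15.3% of all genes were called. These were the same 5 each time, Csf1r, Csf2ra, Csf2rb, Csf2rb2 and Csf3r, all higher in R35K. Called higher in R35K were 9.24%, 8.24%, 9.62% and 10.5% of all genes. For Csf1r the log2 differences were 3.34 ± 0.03, 3.58 ± 0.04, 3.70 ± 0.04 and 2.92 ± 0.03. Csf1 was not called, with differences from 0.18 at 1 hpi to -0.44 at 18 hpi. R35K and its own count table cannot be told apart, since no library of WT or R35A is in that table, and the values at 0 hpi above are the background for this comparison.

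**Figure D5:**
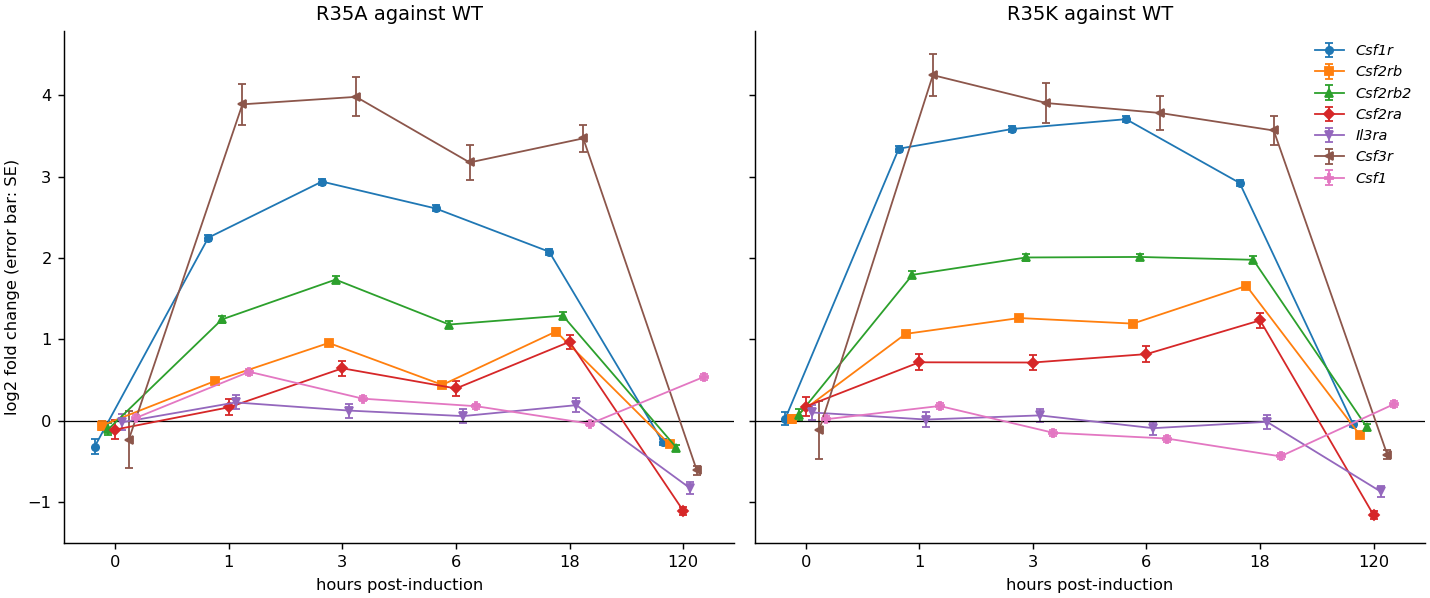
Log2 fold change of R35A against WT (left) and R35K against WT (right) with its SE against hours post-induction, a line for each gene. From 1 to 18 hpi Csf3r, Csf1r and Csf2rb2 lie above 1 in both panels, and at 120 hpi Csf2ra, Il3ra and Csf3r lie farthest below 0.

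The direction differed at 120 hpi. R35A differed from WT in 3 of 7 genes, all lower, where 18.8% of all genes were called and 6.38% were called lower. These were Csf2ra (log2 fold change -1.10 ± 0.05), Il3ra (-0.83 ± 0.08) and Csf3r (-0.61 ± 0.06). R35K differed from WT in 2 of 7, Csf2ra (-1.16 ± 0.05) and Il3ra (-0.87 ± 0.07), both lower, where 13.8% of all genes were called and 3.97% were called lower. The Csf3r call in R35A was lost without R35A 120 hpi replicate 2, at -0.55, and without the low-count filter, at -0.57. Csf1r differed by -0.26 ± 0.03 in R35A and -0.04 ± 0.03 in R35K, and neither was called. The feeder sum at this time averaged 173 CPM in WT, 590.05 CPM in R35A and 466 CPM in R35K, and its part in these differences was not tested.

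R35K exceeded R35A in Csf1r at 1, 3, 6 and 18 hpi, with log2 differences of 1.05 ± 0.03, 0.62 ± 0.03, 1.098 ± 0.03 and 0.83 ± 0.03. It was the only gene of the 7 called at 1 and 3 hpi, beside 8.49% and 5.04% of all genes. At 6 hpi Csf2rb (0.75 ± 0.03), Csf2rb2 (0.83 ± 0.04) and Csf3r (0.61 ± 0.12) were called with it, beside 9.18% of all genes, and at 18 hpi Csf2rb2 (0.67 ± 0.04), beside 5.77%. Called higher in R35K were 5.97%, 3.58%, 7.22% and 3.65% of all genes at 1, 3, 6 and 18 hpi. At 120 hpi 0 of the 7 were called by edgeR, beside 2.85% of all genes, and DESeq2 called 0 as well. The log2 differences then lay between -0.32 for Csf1 and 0.26 for Csf2rb2, and 5 of the 7 had an unadjusted p under 0.05. By edgeR 5 also had an adjusted p of at most 0.05, by DESeq2 5 as well, so that their size, under 1.5-fold, kept them from being called. The call of Csf3r at 6 hpi was lost when any 1 of 9 libraries was left out, replicate 1 of 6 hpi or either replicate of 120 hpi of any construct, at 0.46 to 0.56. It was also lost with DESeq2 and with its size factors (0.55 each) and without the low-count filter or with the compared groups alone (0.56 each). At 1 hpi Csf2ra was not called (0.51 ± 0.10) and was called without R35A 1 hpi replicate 2, at 0.63.

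The changes from 0 hpi were also compared between constructs in 1 model, which tests the difference of the changes. At 1 hpi the change in R35A exceeded that in WT for 3 genes, beside 14% of all genes called: Csf1r by 2.56 ± 0.10, Csf2rb2 by 1.35 ± 0.09 and Csf3r by 4.12 ± 0.48 on the log2 scale. In R35K it did so for 4 genes, beside 11.9%: Csf1r by 3.32 ± 0.09, Csf2rb by 1.04 ± 0.06, Csf2rb2 by 1.72 ± 0.08 and Csf3r by 4.35 ± 0.50. At 120 hpi the change was smaller than in WT for Csf2ra (-0.995 ± 0.12 in R35A and -1.33 ± 0.13 in R35K) and Il3ra (-0.81 ± 0.12 and -0.97 ± 0.12), beside 14.5% and 10.1% of all genes. In these directions alone 5.29% (R35A) and 6.84% (R35K) of all genes were called at 1 hpi, and 4.63% and 2.63% at 120 hpi. Csf2rb and Csf1 in R35A at 1 hpi lay just inside the limit, at 0.55 ± 0.06 and 0.57 ± 0.05, and passed it, at 0.59 to 0.61, when any 1 of 9 libraries was left out. These were the same 9 as for the late fall of Csf1 in R35A, and for Csf1 R35A 0 hpi replicate 2 also. Both passed it with DESeq2 and with its size factors, Csf2rb at 0.61 and Csf1 at 0.63, and Csf1 passed it at 0.59 without the filter and with the compared groups alone. Csf2ra in R35K at 1 hpi, at 0.54 ± 0.16, passed it without WT 0 hpi replicate 1, WT 1 hpi replicate 2 or R35K 0 hpi replicate 2, at 0.59 to 0.67.

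R35A cells of 1 hpi were also set against WT cells of 18 hpi, where 10.5% of all genes were called and 7.66% were called higher. Of the 7 genes 4 were higher in R35A after 1 h than in WT after 18 h: Csf1r (log2 fold change 1.89 ± 0.04), Csf2rb (0.93 ± 0.04), Csf2rb2 (1.07 ± 0.04) and Csf3r (2.39 ± 0.20). Csf2ra, Il3ra and Csf1 were not called, at 0.19 ± 0.10, 0.07 ± 0.08 and -0.12 ± 0.03.

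The other ligands of these receptors were read at low counts. Il3 had at most 2 counts and Il5 at most 3 in any library. Csf2, which encodes GM-CSF, had at most 15 counts and Csf3, which encodes G-CSF, at most 28. Il34, the second ligand of CSF1R, had 10 and 12 counts in WT at 120 hpi but 49 in both R35A libraries and 42 and 35 in R35K. From 0 to 120 hpi Il34 was called higher in R35A (log2 fold change 3.00 ± 0.33) and R35K (2.14 ± 0.30) and was not called in WT (0.55 ± 0.44). Of these 5 ligand genes, 2 were too low to test in WT and R35A and 3 in R35K. Called higher at 120 hpi were 1 in WT, 2 in R35A and 1 in R35K, beside 23.1%, 24.2% and 25.4% of all genes. At 1 hpi they were 0, 3 and 1, beside 10.7%, 18.3% and 15.5%.

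Of 49 other genes of these pathways, from ligands and related receptors to kinases, adaptors, inhibitors and targets, 30 rose and 6 fell from 0 to 120 hpi in WT, 11 were not called and 2 were too low to test. Over all genes 23.1% rose and 40.2% fell in this comparison, which is the background for the WT counts of each list below. In R35A 27 rose and 7 fell, beside 24.2% and 39% of all genes, and in R35K 25 rose and 7 fell, beside 25.4% and 38.5%. The median log2 fold change of the tested members was 1.18 in WT, 0.69 in R35A and 0.92 in R35K, against -0.36, -0.31 and -0.28 over all genes. Related receptors were mixed, with 3 up and 3 down of 6 in WT. Kit, the stem cell factor receptor, fell by 4.85 on the log2 scale, and Il5ra, the IL-5 receptor alpha chain that also uses Csf2rb, fell by 7.01, and its means at 120 hpi were at most 0.0824 CPM in all 3 constructs. Il2rg, the common gamma chain of the IL-2 and IL-7 receptors, rose by 2.36 ± 0.07. Flt3, another receptor tyrosine kinase of progenitors, rose in WT (1.80 ± 0.26) and fell in R35A (-1.47 ± 0.43) and R35K (-1.04 ± 0.42). These values rest on few reads. In WT the mean of Flt3 was 1.05 CPM at 0 hpi and 3.99 CPM at 120 hpi. At 120 hpi it was 0.403 CPM in R35A and 0.578 CPM in R35K.

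All 3 partner and protease genes on the list rose in all 3 constructs. Tyrobp, an adaptor of myeloid receptors, rose from 3.04 to 1681 CPM in WT, and Adam17, the protease that sheds CSF1R, from 87.9 to 390.3 CPM. Among 9 kinases and STATs 6 rose in WT, beside 23.1% of all genes, among them the kinase Fes (log2 fold change 4.34 ± 0.06). Among 10 adaptor and lipid signalling genes 6 rose and 1 fell, with rises of Dok2 (5.56 ± 0.08) and Gab3 (3.23 ± 0.16) and a fall of Shc1 (-0.59 ± 0.05). The value of Shc1 was close to the fold limit, with means of 129 CPM at 0 hpi and 93.3 CPM at 120 hpi. Of 9 feedback inhibitors 5 rose, led by Socs3 (4.59 ± 0.06) and Ptpn6 (1.70 ± 0.04), and 2 fell, Socs2 (-2.57 ± 0.08) and the ubiquitin ligase Cblb (-1.56 ± 0.05). Of 7 transcription targets 6 rose, with Egr2 at 4.53 ± 0.07 and Fos at 4.49 ± 0.04.

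The genes most like each receptor over the 18 group means of log2(CPM + 1) were named by Pearson correlation among 17277 genes. Csf1r was closest to Clec4d (0.998), Mpeg1 (0.997) and Csf2rb2 (0.994). Csf2rb was closest to Cybb, Clec4a2 and Slc8b1 (0.996, 0.995 and 0.995), and Csf2rb2 to Csf1r, Clec4d and Pcyt1a (0.994, 0.993 and 0.993). Among the genes closest to Csf2ra were Syngr2 and Plekhm3 (0.996 and 0.993), and Csf3r was closest to Pld4, Lat2 and Ifnar1 (0.992, 0.988 and 0.988). Il3ra had Gm29233, Vamp4 and Tmem109 (0.977, 0.965 and 0.965) and Csf1 had Ckap4, Cdk16 and Fndc3b (0.965, 0.963 and 0.958). The groups share the scaling and the time points, so these values are a description, and by Spearman correlation 1 of the 21 genes was still among the 3 closest. Among the 7 genes, Csf1r was near Csf2rb (0.974) and farther from Csf2ra (0.672) and Csf1 (0.543), while Csf2ra was nearest to Csf3r (0.945) and Il3ra (0.915).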

How the data were processed

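Polyadenylated RNA of 36 samples was sequenced as stranded single-end libraries. Per the labels and methods, the authors aligned reads to mm10 with STAR 2.5.0a and deposited its gene counts, in which multi-mapping reads are left out, in 1 table for WT and R35A and 1 for R35K, together with log2 values of counts normalised by DESeq2 1.14.1. The annotation release and the strand setting are not given in the sources used here. No column was left unused. Groups followed the sample labels. The counts were tested with edgeR 4.0.16 in R 4.3.3 (filterByExpr, TMM, quasi-likelihood test, Benjamini-Hochberg adjustment) on 24 WT and R35A libraries (16988 genes), 12 R35K libraries (16434) and all 36 libraries for R35K against the others (17277). A call needed 1.5-fold and an adjusted p of at most 0.05. CPM used TMM over all 36 libraries, so CPM ratios differ slightly from fitted fold changes. The labels call the 2 samples of a group biological replicates, and nothing read here says whether they came from separate mice, so that p-values cover the spread between these samples only. Counting noise alone would give a chi-square per gene near 1 between the 2 samples of a group. It ranged from 1.11 in R35A at 6 hpi and 1.12 in WT at 1 hpi to 7.18 in R35K at 3 hpi and 13.2 in WT at 6 hpi. In the groups near 1 the samples scarcely varied beyond counting noise, and a wider biological spread was not tested. The members and lists were chosen with earlier results of these data known. Of each list, the genes named were up to 2 with the largest rise and 2 with the largest fall from 0 to 120 hpi in WT, among called genes without overlap of libraries and with a mean of at least 1 CPM. The ligands, Pdgfrb, Col1a1 and the granulocyte and mast cell genes were named after their values were seen. Some genes that these rules name are not reported here. Alternatives were DESeq2 1.42.0, its size factors, no filter, other fits and thresholds, a replicate block and leaving out each library.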

Additional observations from a re-analysis of the deposited data

Results flagged for a closer look

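For 11 results the change from 0 hpi differed between a mutant and WT by the test of the difference itself, in edgeR's quasi-likelihood test. At 1 hpi the log2 change in R35A was larger than in WT by 2.56 for Csf1r (adjusted p = 2.21e-26), by 1.35 for Csf2rb2 (2.44e-18) and by 4.12 for Csf3r (5.38e-10). In R35K it was larger by 3.32 for Csf1r (4.53e-35), by 1.04 for Csf2rb (5.00e-21), by 1.72 for Csf2rb2 (5.5e-24) and by 4.35 for Csf3r (1.91e-10). At 120 hpi the difference in change from WT was -0.995 for Csf2ra in R35A (3.45e-09), -1.33 for Csf2ra in R35K (2.28e-12), -0.81 for Il3ra in R35A (4.29e-07) and -0.97 for Il3ra in R35K (2.46e-09). Of all genes, 5.29% in R35A and 6.84% in R35K were called larger at 1 hpi, and 4.63% and 2.63% smaller at 120 hpi. The WT arm of the Csf3r differences rests on 6 and 7 counts at 1 hpi. At 0 hpi Csf3r had 15 and 13 counts in WT, 15 and 13 in R35A and 20 and 10 in R35K.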

How the results depend on the processing

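In the fits reported, the 7 genes had 24 calls of 35 against 0 hpi in WT, 33 in R35A and 30 in R35K. Between constructs at the same time there were 20 for R35A against WT, 22 for R35K against WT and 8 for R35K against R35A. The late changes gave 17, the differences of changes 11 and the pathway list 102. The shares of all genes called stand above, beside the counts for each comparison. A limit of 2-fold moved the calls of R35K against R35A to 2, those over all genes against 0 hpi from 101440 to 64112 and those over all genes between constructs from 31306 to 15247. Under the other settings tried, each count stayed within 1.5 times its value. Leaving out 1 library at a time gave 23 to 25, 30 to 34 and 30 to 31 calls against 0 hpi, 19 to 20, 22 and 7 to 9 between constructs, 16 to 17 for the late changes, 11 to 13 for the differences of changes, 100 to 104 on the pathway list, and 100444 to 102340 and 30696 to 31451 over all genes. Over 153 pairs of groups the median correlation of the deviations between replicates was -0.0068, and 22 pairs lay above 0.1. This median mixes pairs within and between constructs, so it cannot decide whether replicate numbers pair the samples within a construct. A replicate block left the member counts at 24, 33, 30, 20, 22 and 8, and gave 101299 and 31149 calls over all genes. The single calls that other settings ended or added are given with their values, and the cause was not tested. Size factors in place of TMM moved the median of all genes by 0.158, 0.129 and 0.136 (log2) from 0 to 120 hpi in WT, R35A and R35K, by 0.115 from 0 to 18 hpi in WT and by -0.105 for R35K against WT at 18 hpi. The share of calls that were higher went from 68.8% to 55.0% for R35K against WT at 18 hpi, and for R35K against R35A from 70.3% to 59.1% at 1 hpi and from 78.6% to 67.3% at 6 hpi. Depth limits Csf3r in WT before 120 hpi and in the mutants at 0 hpi, Flt3 at 0 and 120 hpi, and the ligands read at a few counts.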
